A study of Mus musculus with 16 samples.

Results

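A group of 10 genes that encode secreted Wnt ligands was followed through 6 lists of ChIP-sequencing peaks from mouse embryonic stem cells (ESCs): Wnt4, Wnt5a, Wnt5b, Wnt6, Wnt7a, Wnt7b, Wnt9a, Wnt9b, Wnt11 and Wnt16. They are 10 of the 26180 genes with a curated RefSeq transcript. Every peak that touched the 2500 bp on either side of one of their 16 start sites, or the gene body, was taken. A mark was assigned to a gene if a peak shared at least 1 bp with the window of any of its start sites. All positions are in GRCm38 and count from 1.

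Both cultures came from R1 mouse ESCs that carry MycER, a Myc protein fused to the hormone-binding part of the estrogen receptor, which 4-hydroxytamoxifen (OHT) switches on. LIF-ESCs received LIF (100 units/ml) and no OHT. Myc-ESCs were grown with 50 nM OHT and no LIF, so the presence of LIF and the activity of MycER differ together and cannot be told apart. Both were kept without feeders in medium with serum and vitamin C. The study's MycER cells are single clones, and which clone gave these libraries is not given in the sources used here. Of 16 labelled libraries 4 are input without antibody, and each antibody was used on 2 libraries per culture, behind which stands 1 list of peaks. There is no list per library and no read count. The depth is therefore unknown and no value has a replicate error, no difference between the cultures could be tested, and each value below is a description of 2 lists. The genes Pou5f1, Sox2, Nanog and Zfp42, which mark ESCs, carried H3K4me3 in both cultures without Suz12 or H3K27me3. Esrrb, another gene of the ESC state, carried H3K4me3 and Suz12 in both and H3K27me3 in Myc-ESCs.

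Wnt proteins are lipid-modified, secreted signals that bind Frizzled receptors. Some of them act mainly by stabilising β-catenin. Others, with Wnt5a and Wnt11 as the classic examples, also signal through receptors such as Ror2 and Ryk and through the planar cell polarity proteins, which orient cells and guide their movements. H3K4me3 is a histone mark of active or poised start sites. H3K27me3 is the mark laid down by the Polycomb complex PRC2, of which Suz12 is a core subunit, and is known for silencing developmental genes. A start site with H3K4me3 and H3K27me3 together is called bivalent, and many genes of embryonic patterning are bivalent in ESCs.

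All 10 genes carried H3K4me3 at a start site in both cultures, where 62.2% of all genes did in LIF-ESCs, 63.3% in Myc-ESCs and 61.0% in both. Suz12 was found at 9 of the 10 in LIF-ESCs and at all 10 in Myc-ESCs, against 12.1% and 14.6% of all genes (10.8% in both). The gene with Suz12 in Myc-ESCs only was Wnt5b, a class to which 3.82% of all genes belonged. H3K27me3 separated the cultures most. In LIF-ESCs it was found at 3 genes, Wnt7b, Wnt9b and Wnt11, against 3.82% of all genes, and these 3 kept it in Myc-ESCs, so that they had it in both cultures, as 3.09% of all genes did. In Myc-ESCs it was found at 9, all but Wnt4, against 10.7% of all genes. H3K27me3 of Myc-ESCs alone was therefore seen at 6 genes (Wnt5a, Wnt5b, Wnt6, Wnt7a, Wnt9a and Wnt16), where 7.65% of all genes were in that class. None of the 10 had H3K4me3 in Myc-ESCs only (2.35% of all genes), and none had any of the 3 marks in LIF-ESCs only, a class that held 1.21% of all genes for H3K4me3, 1.28% for Suz12 and 0.733% for H3K27me3. All 3 marks stood together at 3 of the genes in LIF-ESCs and at 9 in Myc-ESCs, against 2.77% and 8.87% of all genes.

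**Figure D1:**
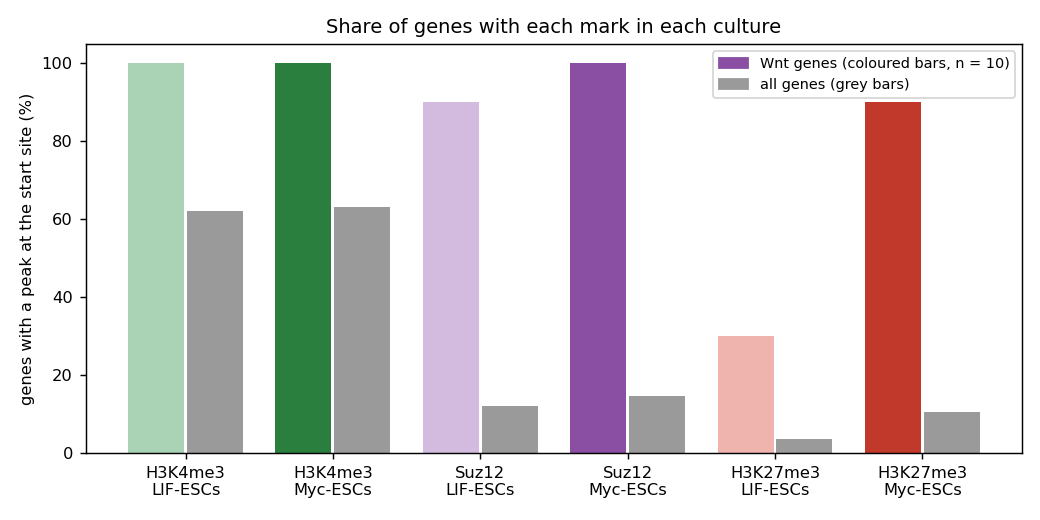
Share of genes (%) with a peak within 2500 bp of a start site, for each mark and culture, with the 10 Wnt genes as coloured bars and all 26180 genes as grey bars. For H3K27me3 the Wnt genes go from 3 of 10 in LIF-ESCs to 9 of 10 in Myc-ESCs, and all genes from 3.82% to 10.7%.

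A comparison class was made of the genes that carried both H3K4me3 and Suz12 in LIF-ESCs as well as in Myc-ESCs, which leaves out Wnt5b. Of all genes, 2595 (9.91%) were in it, and 9 of the Wnt genes were among them. Within this class H3K27me3 in Myc-ESCs was found at 8 of the 9 Wnt genes and at 71.1% of all genes in it, and H3K27me3 in LIF-ESCs at 3 of the 9 and at 26.6%. Among those without H3K27me3 in LIF-ESCs, it was found in Myc-ESCs at 5 of 6 Wnt genes and at 64.2% of 1906 genes. The counts of the Wnt genes lie near these shares. In bulk cultures a mark carried by more cells and a mark that is denser in each cell cannot be told apart.

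The H3K27me3 lists differ in length: 3120 peaks for LIF-ESCs, 16717 for Myc-ESCs. When both were limited to their 3120 highest-scoring peaks, 6 of the Wnt genes carried H3K27me3 in Myc-ESCs and 3 in LIF-ESCs. Over all genes the order was then the other way, with 3.53% in Myc-ESCs and 3.82% in LIF-ESCs. Only 3 of the group (Wnt5a, Wnt5b and Wnt7a) then had it in Myc-ESCs alone, against 1.75% of all genes, and still none of the 10 had it in LIF-ESCs only, against 2.04%. At a score of at least 100 no Wnt gene of the group kept H3K27me3 in LIF-ESCs, and 6 kept it in Myc-ESCs (Wnt5a, Wnt5b, Wnt7a, Wnt7b, Wnt9b and Wnt11). Over all genes the shares at this limit were 0.458% and 3.73%, with 339 of the LIF-ESC peaks left, so a count of 0 among 10 genes says little. The score of a peak is the peak caller's p-value on a log scale. It starts at 50, grows with depth, and was ranked within its own list.

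By their 6 calls the genes fell into 4 patterns. Wnt5a, Wnt6, Wnt7a, Wnt9a and Wnt16 had H3K4me3 and Suz12 in both cultures and H3K27me3 in Myc-ESCs, the same calls as 4.68% of all genes. Wnt7b, Wnt9b and Wnt11 had every mark in both cultures, as did 2.37% of all genes. Wnt4 had H3K4me3 and Suz12 in both and no H3K27me3, as did 2.61%. Wnt5b stood alone, with H3K4me3 in both cultures and both Polycomb marks in Myc-ESCs only, as did 1.23%.

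The length of DNA under peaks also differed. Over the start-site windows, the 9 Wnt genes with Suz12 in both had medians of 1946 bp (LIF-ESCs) and 2776 bp (Myc-ESCs) under its peaks, and all 9 had more bases in Myc-ESCs. Among all 2822 genes with Suz12 in both cultures the medians were 1124 and 1810 bp, and 81.4% had more in Myc-ESCs. H3K27me3 covered more bases in Myc-ESCs at all 3 Wnt genes that had it in both, with medians of 238 and 1630 bp. Among the 808 genes with H3K27me3 in both, the medians were 174 and 805 bp, and 89.0% had more in Myc-ESCs. Genes with several start sites have longer windows, 8752 bp at Wnt7b and 8734 bp at Wnt11, against 5001 bp at Wnt9b. For H3K4me3, 9 of the 10 Wnt genes had more bases in Myc-ESCs, with medians of 3547 and 3831 bp. Over all genes with H3K4me3 in both cultures the medians were 3394 and 3562 bp, and 65.0% had more in Myc-ESCs. The Wnt gene with less was Wnt6.

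**Figure D2:**
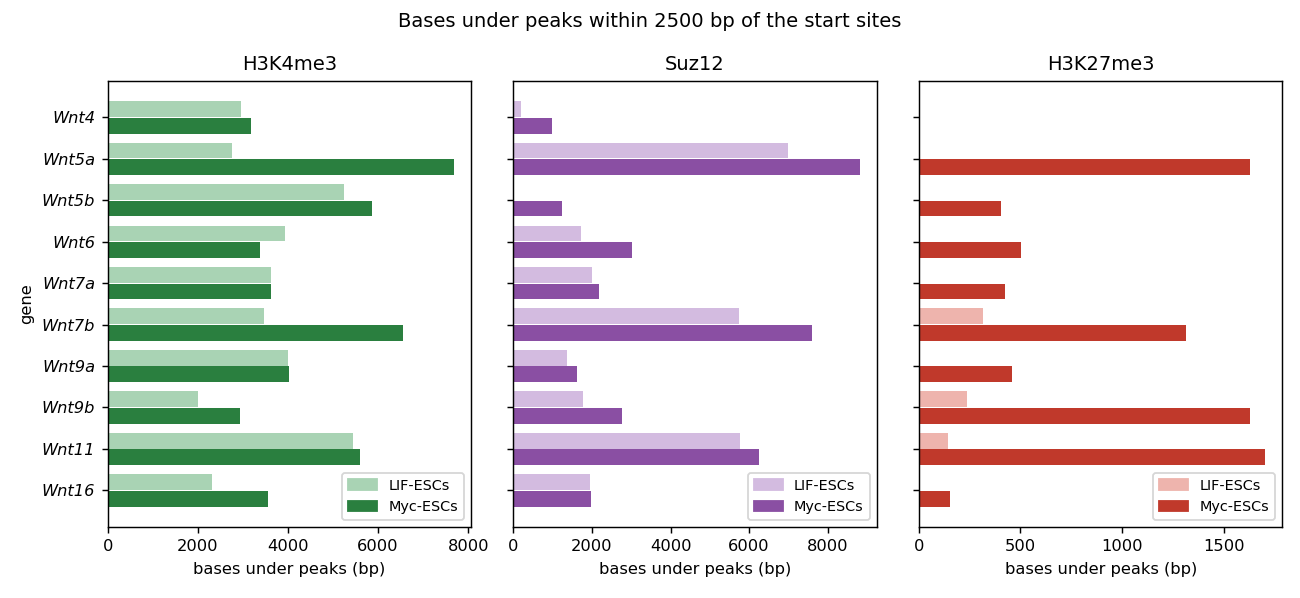
Bases under H3K4me3, Suz12 and H3K27me3 peaks (bp, horizontal axes with a scale for each mark) within 2500 bp of the start sites of each gene, in LIF-ESCs (light bars) and Myc-ESCs (dark bars). The H3K27me3 bars of LIF-ESCs are present only for Wnt7b, Wnt9b and Wnt11, and Wnt4 has none in either culture.

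Wnt5a and Wnt11 are the ligands best known for signalling without β-catenin, in cell movement and the lengthening of the body axis. Both carried long Suz12 domains in both cultures. Wnt5a lies on chromosome 14 (positions 28505473 to 28527447, plus strand) and has 2 start sites, 5932 bp apart. Its windows held 6995 bp of Suz12 in LIF-ESCs against 8811 bp in Myc-ESCs, and the highest Suz12 score was 3100.0 in both lists, above 98.5% of the LIF-ESC peaks and 96.1% of the Myc-ESC peaks. The same score of 3100.0 recurred at Suz12 peaks of Wnt11 and Wnt7b and at H3K4me3 peaks. An equal score of this size therefore does not show equal strength. The LIF-ESC list had 4 Suz12 peaks in these windows and the Myc-ESC list 3, of which the longest, 7241 bp, ran from −1475 to +5765 of the first start site. Suz12 was thus present in LIF-ESCs, but no LIF-ESC H3K27me3 peak lay nearer than 130058 bp. The whole LIF-ESC H3K27me3 list held 3120 peaks. Distances to its nearest peak, here and below, have no all-gene reference and do not show a region empty of the mark. In Myc-ESCs 8 H3K27me3 peaks covered 1630 bp of the windows. The highest, with a score of 154.15, lay beyond the second start site, from +6573 to +7006. A further H3K27me3 peak in the first intron, from +2852 to +3183, fell outside the windows.

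The second start site of Wnt5a differed in H3K4me3 too. In LIF-ESCs the gene had 1 H3K4me3 peak, of 2754 bp around the first start site, and none within 2500 bp of the second. In Myc-ESCs the first start site had a peak of 3802 bp with a score of 795.4, and a second peak of 4246 bp, from +3069 to +7314 with a score of 480.51, covered the second start site. Each of the other 15 start sites of the group had the same H3K4me3 call in both cultures. Of all start sites, 2.47% had H3K4me3 in Myc-ESCs only. Another 2 H3K4me3 peaks lay further along the body of Wnt5a in Myc-ESCs only, from +11734 to +13517 and from +16138 to +17773, with lower scores of 88.86 and 127.74.

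Wnt11 (chromosome 7, 98835112 to 98854747, plus strand) has 2 start sites, 3733 bp apart, and 1 Suz12 domain joined them in both cultures. That domain was 5576 bp long in LIF-ESCs against 6023 bp in Myc-ESCs. It had the recurring score of 3100.0 in both, above 98.5% and 96.1% of their lists. H3K4me3 formed a peak at each start site in both cultures, 5452 bp in all in LIF-ESCs against 5603 bp in Myc-ESCs. In the full lists H3K4me3 and Suz12 were thus of like extent in the cultures, while H3K27me3 was not. In LIF-ESCs a single H3K27me3 peak of 142 bp with a score of 70.34 lay in the first intron and second exon, from +888 to +1029. In Myc-ESCs 9 peaks covered 1705 bp, the most of the 10 genes within the start-site windows, and the highest had a score of 171.12. With the gene bodies included, Wnt5a had 2044 bp and Wnt9b 1915 bp. The Myc-ESC peaks stood on both sides of both start sites, and all 9 overlapped Suz12.

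**Figure D3:**
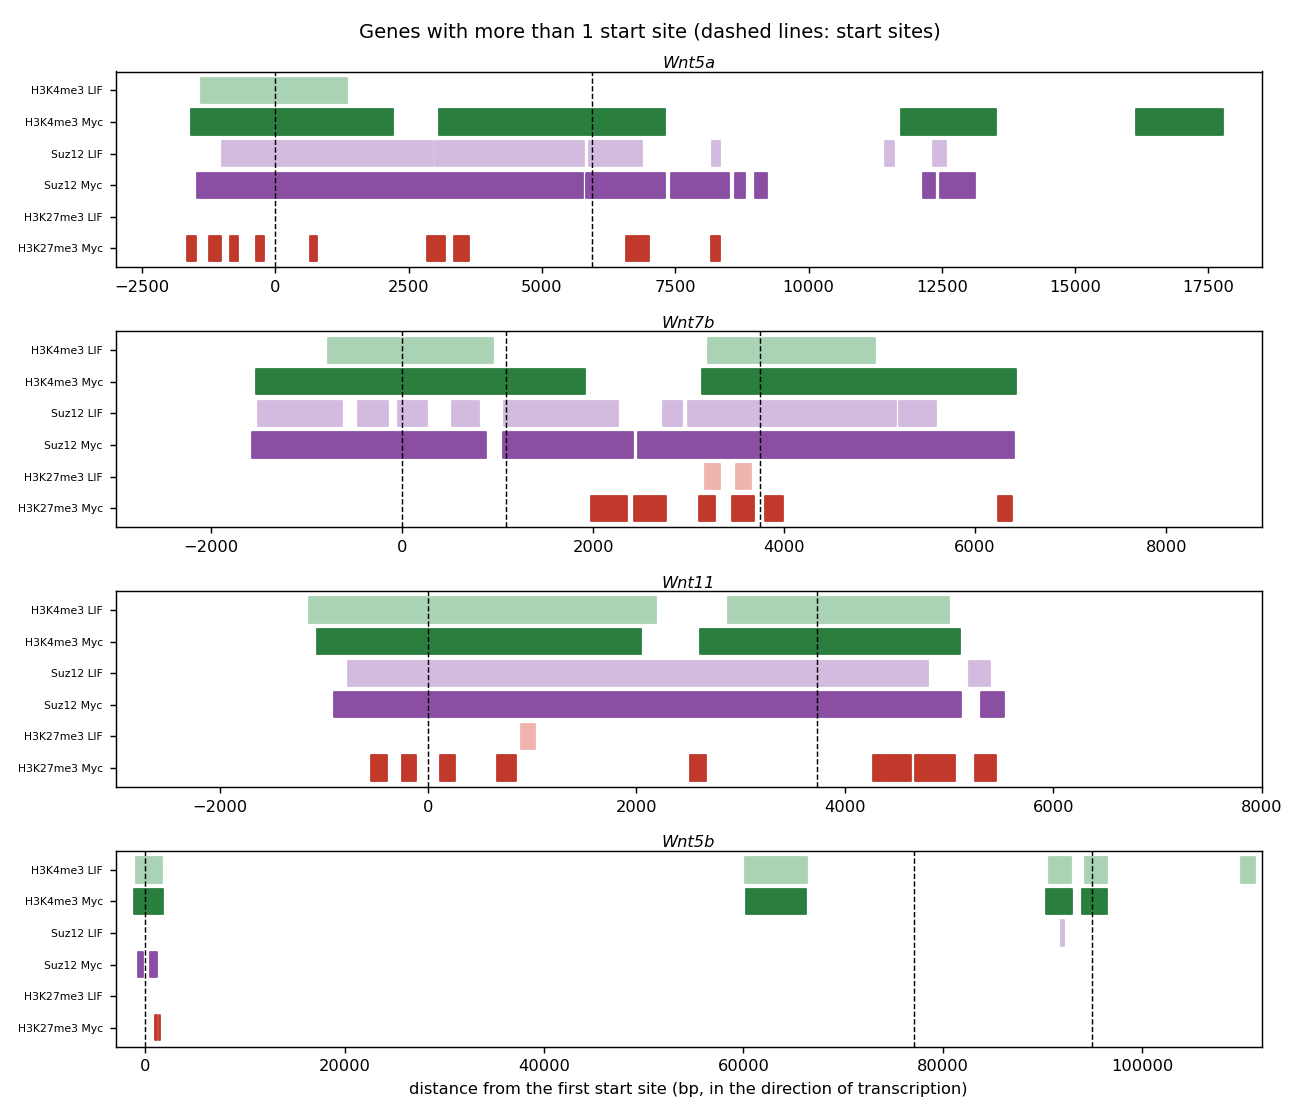
Peaks along the 4 genes with more than 1 start site, by distance (bp) from the first start site in the direction of transcription, with start sites as dashed lines, LIF-ESC peaks in light and Myc-ESC peaks in dark colours, and a scale of its own for each gene. At Wnt5a the H3K4me3 peak over the second start site is present in Myc-ESCs only, and at Wnt5b Suz12 and H3K27me3 lie at the first of 3 start sites in Myc-ESCs only.

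Wnt5b is the paralog of Wnt5a and is known from cartilage growth. It lies on chromosome 6 (119432531 to 119544347, minus strand) and has 3 start sites spread over its body of 111817 bp. Their promoters are shown here because the marks fell on them so unequally. Each is 300 bases, from 250 before to the first 50 of the transcript, from RefSeq on GRCm38, with every CG dinucleotide, the site of DNA methylation, in capitals. The first lies at chr6:119544298-119544597, the second at chr6:119467162-119467461 and the third at chr6:119449337-119449636, all on the minus strand.
Wnt5b, start site at 0: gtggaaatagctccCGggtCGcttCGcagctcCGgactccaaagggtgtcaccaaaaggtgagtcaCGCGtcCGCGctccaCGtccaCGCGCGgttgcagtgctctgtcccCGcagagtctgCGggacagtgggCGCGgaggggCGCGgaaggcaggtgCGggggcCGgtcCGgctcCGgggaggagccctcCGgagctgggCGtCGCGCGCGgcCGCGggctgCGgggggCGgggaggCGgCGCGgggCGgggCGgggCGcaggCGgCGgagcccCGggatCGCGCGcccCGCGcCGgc
Wnt5b, start site at +77136: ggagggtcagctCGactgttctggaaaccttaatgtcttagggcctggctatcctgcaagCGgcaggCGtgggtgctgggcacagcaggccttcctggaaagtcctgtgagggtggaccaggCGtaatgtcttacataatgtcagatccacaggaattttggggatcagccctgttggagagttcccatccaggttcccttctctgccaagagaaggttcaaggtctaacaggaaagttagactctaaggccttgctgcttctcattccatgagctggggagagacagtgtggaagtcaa
Wnt5b, start site at +94961: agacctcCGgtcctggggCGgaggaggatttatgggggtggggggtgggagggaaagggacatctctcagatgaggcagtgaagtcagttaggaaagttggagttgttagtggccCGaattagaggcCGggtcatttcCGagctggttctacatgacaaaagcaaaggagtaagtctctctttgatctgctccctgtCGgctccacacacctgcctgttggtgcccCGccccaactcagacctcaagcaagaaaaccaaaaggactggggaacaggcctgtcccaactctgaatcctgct

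The first of these promoters held 47 CG dinucleotides, the second 4 and the third 7. The median of all 32851 promoters in the table was 7 and their 75th percentile 20. The first start site carried H3K4me3 in both cultures, with 2626 bp in LIF-ESCs against 2858 bp in Myc-ESCs. It had no Suz12 in LIF-ESCs and 1225 bp of it in Myc-ESCs, in peaks of 462 bp before the start site and 763 bp in the first intron. The higher of these, with a score of 348.02, stood above 79.2% of its list. H3K27me3 was found there in Myc-ESCs only, as 2 peaks of 406 bp in all. The second start site, 77136 bp downstream, had no peak of any list. The third, 94961 bp downstream, had H3K4me3 in both cultures, 2628 and 3004 bp, and neither Polycomb mark in its window in either. The Polycomb marks of Wnt5b in Myc-ESCs were therefore found at the first start site alone. A link with CG content was not tested. In Myc-ESCs Wnt4, with 51 CG dinucleotides, had no H3K27me3, and Wnt16, with 10, had both Polycomb marks.

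At a wider scale the Wnt5b call was less sharp. A LIF-ESC Suz12 peak of 302 bp lay 2814 bp from the third start site, just beyond the window, and with windows of 5000 bp the gene counted as marked by Suz12 in both cultures. The longest H3K4me3 peak in the body, 6222 bp in LIF-ESCs against 6039 bp in Myc-ESCs, holds the start site of another gene, Fbxl14, and cannot be assigned to Wnt5b. A further H3K4me3 peak of 1339 bp with a score of 79.58, near the end of the gene, was called in LIF-ESCs only. The higher of the H3K27me3 peaks at the first start site lay in the first intron at chr6:119543191-119543413, from +934 to +1156, with a score of 107.92. Its sequence on the strand of the gene is shown beside the promoter, because it held only 3 CG dinucleotides in 223 bases.
Wnt5b, H3K27me3 peak in Myc-ESCs: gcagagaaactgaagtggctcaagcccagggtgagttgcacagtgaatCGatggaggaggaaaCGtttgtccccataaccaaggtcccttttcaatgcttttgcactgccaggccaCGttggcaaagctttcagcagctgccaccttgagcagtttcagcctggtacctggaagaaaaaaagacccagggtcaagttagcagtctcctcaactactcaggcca

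Wnt4, which is needed for kidney tubules and the female reproductive tract, was the gene without H3K27me3. It lies on chromosome 4 (137277635 to 137299501, plus strand). H3K4me3 covered 2958 bp at its start site in LIF-ESCs against 3189 bp in Myc-ESCs. Suz12 was sparse: a single peak of 183 bp with a score of 57.75 in LIF-ESCs, 1109 bp before the start site, and 4 peaks of 971 bp in all in Myc-ESCs, the highest with a score of 98.32. These were the fewest Suz12 bases of the 9 genes with Suz12 in LIF-ESCs and of all 10 in Myc-ESCs. At a score of at least 100 Wnt4 had no Suz12 in either culture, and with windows of 1000 bp it had Suz12 in Myc-ESCs only. The nearest H3K27me3 peak lay 1131795 bp away in LIF-ESCs and 713369 bp away in Myc-ESCs. The promoter of Wnt4, at chr4:137277385-137277684 on the plus strand, is shown as the one without H3K27me3 among the CG-rich promoters counted here, with 51 CG dinucleotides in capitals.
Wnt4: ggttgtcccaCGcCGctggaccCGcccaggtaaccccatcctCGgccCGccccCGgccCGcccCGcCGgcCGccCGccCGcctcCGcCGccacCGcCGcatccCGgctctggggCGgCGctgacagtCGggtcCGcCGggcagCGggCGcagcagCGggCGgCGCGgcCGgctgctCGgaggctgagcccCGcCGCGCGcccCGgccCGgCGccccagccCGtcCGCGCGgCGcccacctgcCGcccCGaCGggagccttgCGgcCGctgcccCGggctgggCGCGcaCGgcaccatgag

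Wnt9b, which acts upstream of Wnt4 in the kidney, and Wnt9a, which is known from joint formation, are paralogs, both on chromosome 11. At Wnt9b (103727363 to 103749821, minus strand) H3K4me3 covered 1998 bp in LIF-ESCs against 2942 bp in Myc-ESCs, and Suz12 covered 1777 and 2776 bp. H3K27me3 covered 238 bp in 2 peaks in LIF-ESCs and 1630 bp in 8 peaks in Myc-ESCs. Both LIF-ESC peaks, with scores of 58.2 and 64.49, lay in the first intron, where Myc-ESC peaks were also called. The Myc-ESC peaks reached further in both directions, from −1763 to +2169 within the window and on to +2869. Of the 8 peaks in the window, 5 overlapped Suz12.

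At Wnt9a (59306930 to 59333552, plus strand) the H3K4me3 peak at the start site had the highest score of all H3K4me3 peaks at the group's start sites in both lists, with values of 1115.42 in LIF-ESCs and 1215.81 in Myc-ESCs. Suz12 covered 1370 and 1624 bp on both sides of the start site. H3K27me3 was absent from the LIF-ESC list, with the nearest peak 170303 bp away, and 3 peaks of 459 bp in all were called in Myc-ESCs. All 3 lay before the start site and overlapped Suz12, and the highest had a score of 65.86, close to the middle of its list (above 50.7% of it). Their call is among the weakest of the group. The promoter, at chr11:59306680-59306979 on the plus strand, and the highest H3K27me3 peak, at chr11:59306112-59306251, 679 bp before the start site, are shown together since the promoter held the most CG dinucleotides (58) of the 11 promoters counted, those of the genes other than Wnt5a and Wnt7b, and the peak only 2 in 140 bases.
Wnt9a, promoter: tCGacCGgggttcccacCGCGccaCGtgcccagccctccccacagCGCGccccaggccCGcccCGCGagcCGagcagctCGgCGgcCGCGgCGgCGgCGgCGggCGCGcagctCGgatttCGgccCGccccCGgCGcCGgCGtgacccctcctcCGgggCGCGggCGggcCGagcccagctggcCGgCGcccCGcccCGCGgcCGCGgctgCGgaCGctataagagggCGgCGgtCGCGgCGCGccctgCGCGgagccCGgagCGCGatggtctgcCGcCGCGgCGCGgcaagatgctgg
Wnt9a, H3K27me3 peak in Myc-ESCs: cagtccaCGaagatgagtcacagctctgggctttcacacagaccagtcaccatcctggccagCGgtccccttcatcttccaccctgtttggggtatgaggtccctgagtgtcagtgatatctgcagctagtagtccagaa

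Wnt7a and Wnt7b, paralogs that act in the growth of brain blood vessels, with Wnt7a also in limb patterning and Wnt7b in the lung, differed from each other. Wnt7a (chromosome 6, 91363981 to 91411353, minus strand) had nearly the same extent of H3K4me3 in LIF-ESCs and Myc-ESCs, 3625 and 3634 bp, and of Suz12, 2007 and 2169 bp. In LIF-ESCs the nearest H3K27me3 peak was 124517 bp away. In Myc-ESCs it had a single peak of 423 bp in the first intron, from +567 to +989. With a score of 182.29 this was the highest H3K27me3 peak at the start sites of the 10 genes, above 93.9% of its list.

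Wnt7b (chromosome 15, 85535437 to 85581821, minus strand) has 3 start sites within 3751 bp. H3K4me3 covered 3469 bp of its windows in LIF-ESCs against 6555 bp in Myc-ESCs. Suz12 covered 5748 bp in 8 peaks in LIF-ESCs and 7599 bp in 3 peaks in Myc-ESCs, so that separate peaks of one list were joined in the other. H3K27me3 covered 316 bp in 2 peaks in LIF-ESCs and 1316 bp in 6 peaks in Myc-ESCs. Both LIF-ESC peaks lay just before the third start site, from +3167 to +3653, and at the first start site alone Wnt7b had H3K27me3 in Myc-ESCs only. In Myc-ESCs the highest peaks, with scores of 142.92 and 141.64, lay between the second and the third start site. The H3K4me3 peak at the first start site also holds a start site of AU022754, a non-coding RNA gene, so it cannot be assigned to Wnt7b alone. An H3K27me3 peak of 118 bp in the third intron, 43721 bp downstream of the first start site, was called in LIF-ESCs only.

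Wnt6, an ectodermal ligand, and Wnt16, known from bone, completed the group. At Wnt6 (chromosome 1, 74771892 to 74785319, plus strand) H3K4me3 covered 3936 bp in LIF-ESCs against 3379 bp in Myc-ESCs. Suz12 covered 1709 bp in 6 peaks, with a highest score of 192.72, in LIF-ESCs and 3019 bp in 4 peaks, with a highest score of 1354.74, in Myc-ESCs. Within the start-site windows this was the one gene with fewer bases under H3K4me3 and more under Suz12 in Myc-ESCs. With the bodies included, Wnt5b and Wnt7a also had fewer bases under H3K4me3 and more under Suz12. H3K27me3 was called in Myc-ESCs only, as 3 peaks of 501 bp in all with scores up to 82.57. The nearest LIF-ESC H3K27me3 peak was 33184 bp away. A second H3K4me3 peak of 4417 bp in LIF-ESCs against 4447 bp in Myc-ESCs, with scores of 1607.74 and 1587.69, lay over exons 2 to 4 and the end of the gene and covered no curated start site. Another peak, of 1682 bp with a score of 58.58 in the first intron, was called in LIF-ESCs only. Within the peak at the end of the gene, Suz12 covered 153 bp in 1 peak in LIF-ESCs and 1516 bp in 4 peaks in Myc-ESCs.

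At Wnt16 (chromosome 6, 22288227 to 22298522, plus strand) H3K4me3 covered 2321 bp with a score of 215.88 in LIF-ESCs and 3554 bp with a score of 1056.5 in Myc-ESCs. Suz12 was of like extent, 1946 and 1973 bp. A single H3K27me3 peak of 155 bp with a score of 83.39 was called at the start site in Myc-ESCs, in the second intron, and the nearest LIF-ESC peak was 963144 bp away. With windows of 1000 bp this call was lost. Another 2 H3K27me3 peaks, with scores of 61.08 and 80.98, lay in intron 3 in Myc-ESCs. The promoter of Wnt16, at chr6:22287977-22288276 on the plus strand, is shown as the least CG-rich first promoter among the 8 genes counted (10 CG dinucleotides), with the H3K27me3 peak at chr6:22289578-22289732, which held 7 in 155 bases.
Wnt16, promoter: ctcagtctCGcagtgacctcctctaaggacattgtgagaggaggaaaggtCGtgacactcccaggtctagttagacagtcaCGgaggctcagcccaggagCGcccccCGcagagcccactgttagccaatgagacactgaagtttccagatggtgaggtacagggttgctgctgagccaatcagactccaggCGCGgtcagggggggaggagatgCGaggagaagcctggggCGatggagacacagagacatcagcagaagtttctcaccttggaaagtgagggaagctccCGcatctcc
Wnt16, H3K27me3 peak in Myc-ESCs: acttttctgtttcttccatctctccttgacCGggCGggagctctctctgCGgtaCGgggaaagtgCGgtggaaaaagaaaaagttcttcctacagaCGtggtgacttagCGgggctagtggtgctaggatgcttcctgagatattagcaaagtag

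**Figure D4:**
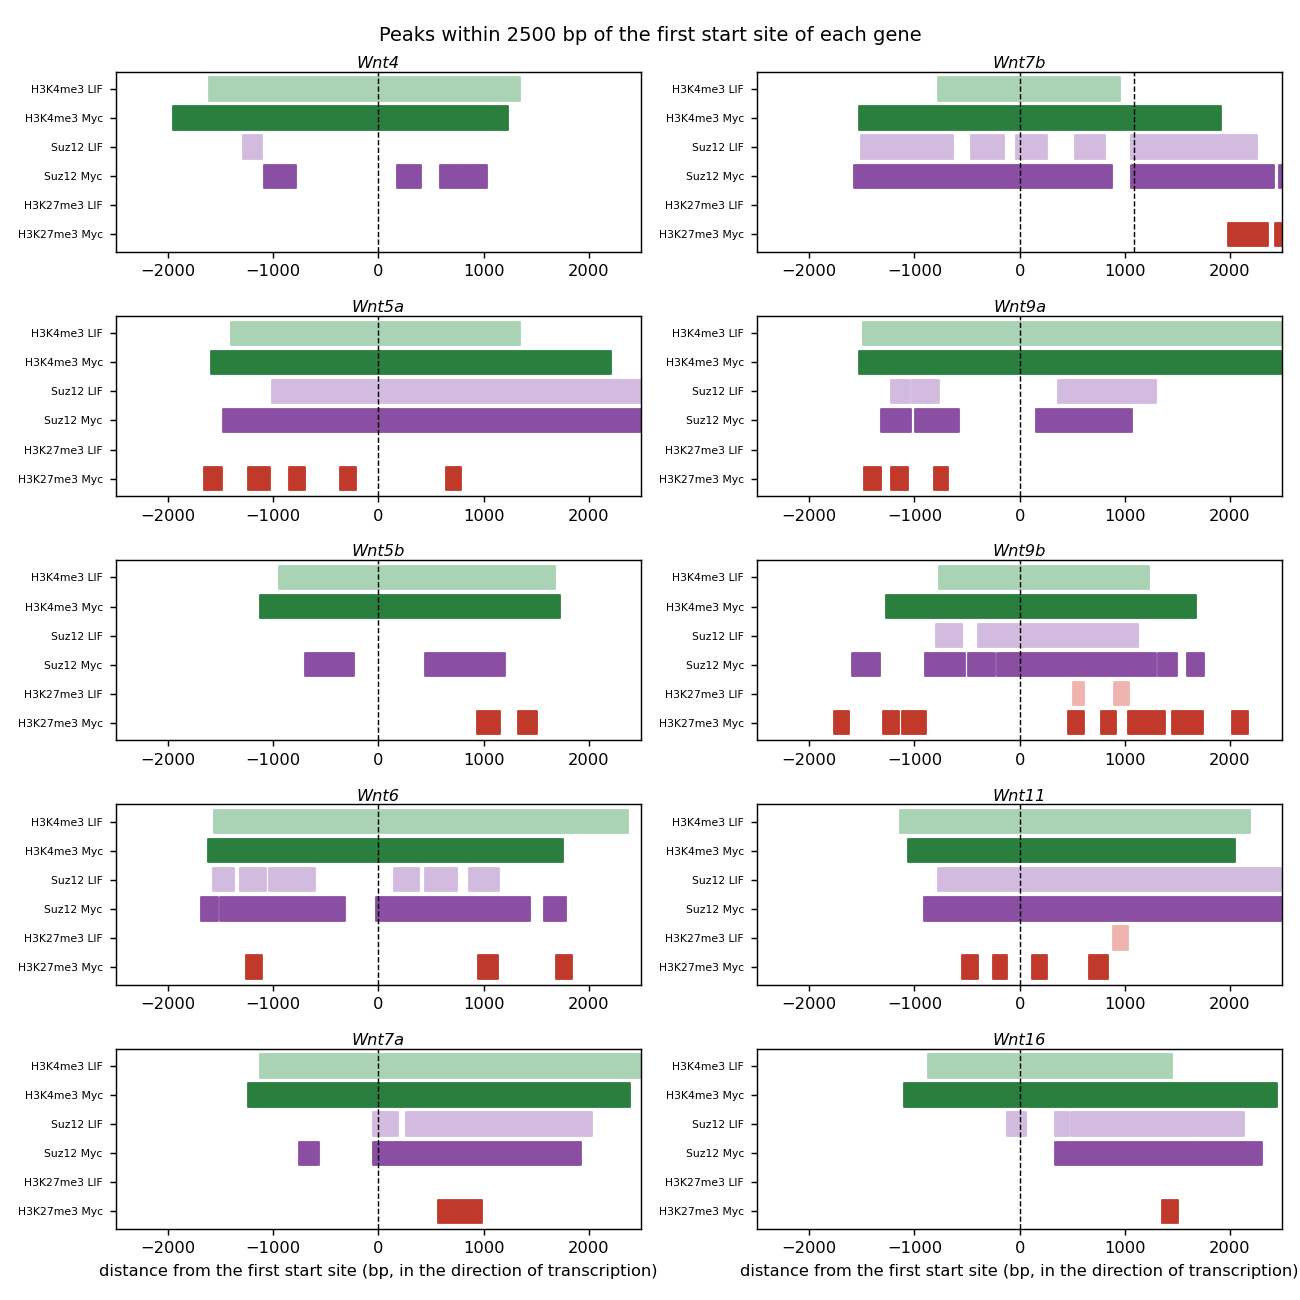
Peaks of the 3 marks within 2500 bp of the first start site (dashed line, with further start sites in range also dashed) of each of the 10 genes, by distance (bp) in the direction of transcription, with LIF-ESC peaks in light and Myc-ESC peaks in dark colours. H3K4me3 covers the first start site in both cultures at every gene, and no H3K27me3 peak lies on a start site.

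The H3K27me3 peaks of the group were like those of other genes in length and in their place beside the start sites. The windows held 5 LIF-ESC peaks and 41 Myc-ESC peaks, and 0 of the 41 covered a start site of these genes. Of the 6971 Myc-ESC H3K27me3 peaks at start sites of all genes, 1.53% covered one. Short H3K27me3 peaks were the rule, with median lengths of 157 bp (LIF-ESCs) and 162 bp (Myc-ESCs) over the whole lists. Their number, lengths and gaps are those of the peak calls. A gap between peaks, also over a start site, does not show DNA without the mark. The 41 peaks had a median length of 167 bp, where the median over all genes was 166 bp. Of the 41, 30 scored under 100, as did 5486 of the 6971. In LIF-ESCs all 5 overlapped Suz12 and H3K4me3, as 58.8% and 45.6% of the LIF-ESC peaks at start sites of all genes did. In Myc-ESCs 36 of the 41 (87.8%) overlapped Suz12 and 35 (85.4%) overlapped H3K4me3, against 62.7% and 60.3% of the peaks of all genes. The Wnt genes with such peaks all carried H3K4me3 and Suz12 in the same culture. Not all other genes with such peaks did, so these shares are not like for like. The 41 peaks are also not independent, with 9 at Wnt11, 8 each at Wnt5a and Wnt9b, and 6 at Wnt7b. Of the 41, 29 overlapped a Suz12 peak of LIF-ESCs by at least 1 bp, as 45.7% of the 6971 did.

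The promoters in the RefSeq table, 11 promoters of the 8 genes other than Wnt5a and Wnt7b, were compared with all promoters by their CG dinucleotides. In 8 of the 11 the count was above 20, the 75th percentile of all promoters. In order of falling count these were Wnt9a with 58, Wnt4 with 51, the first promoter of Wnt5b with 47, the first of Wnt11 with 45, Wnt7a with 42, Wnt6 with 31, Wnt9b with 29 and the second of Wnt11 with 23. Wnt16, with 10, lay between the median and the 75th percentile and had Myc-ESC H3K27me3 in its window. The third promoter of Wnt5b was at the median of all promoters and the second below it. Of the 8 promoters above 20, Wnt4 alone had no Myc-ESC H3K27me3 in its window. The CG content of the Myc-ESC H3K27me3 peaks was counted for these genes only, without the 8 peaks of Wnt5a and the 6 of Wnt7b. The 27 peaks counted, at 7 genes, had a median of 1.4 CG dinucleotides per 100 bp, from 0 to 12.5. All 6971 Myc-ESC H3K27me3 peaks at start sites had a median of 1.33, near that value. The 2 richest of the 27, with 12.5 and 10.2 per 100 bp, lay close to the first start site of Wnt11. CACGTG, the E-box bound by Myc and other factors, which reads the same on both strands, was found in 1 of the 11 promoters, that of Wnt9a at −228, and in 7.15% of all promoters.

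**Figure D5:**
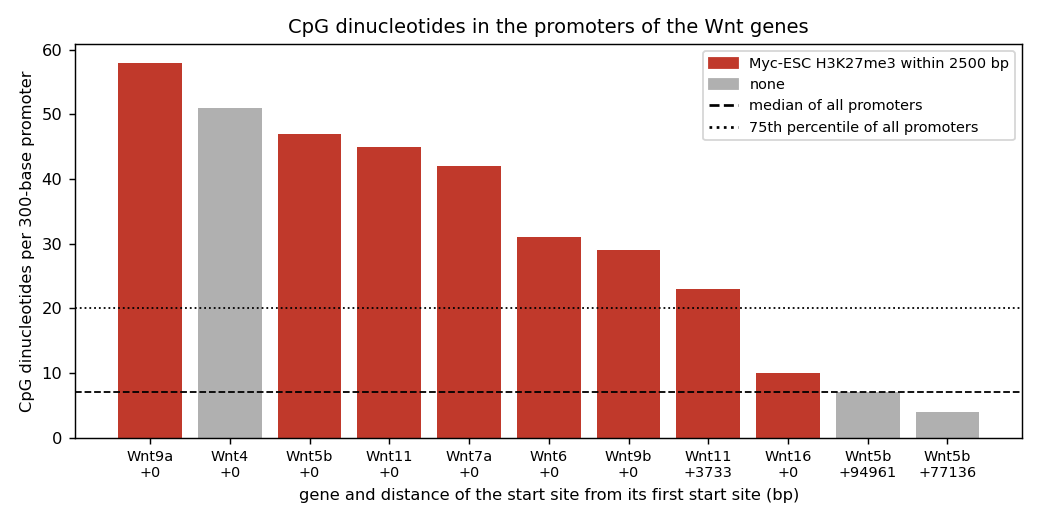
Number of CG dinucleotides in each 300-base promoter of the 8 genes counted, labelled with the gene and the distance (bp) of its start site from the first, coloured red where a Myc-ESC H3K27me3 peak lay within 2500 bp. Lines give the median (7) and the 75th percentile (20) of all promoters, and the 2 promoters of Wnt5b without H3K27me3 are at or below the median. Wnt16, with 10, lies between the lines and is red.

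Wnt6, Wnt9a and Wnt9b lie beside another Wnt gene. Wnt6 lies 6699 bp before Wnt10a on the same strand. Wnt9a and Wnt3a start 16179 bp apart on opposite strands, as do Wnt9b and Wnt3, 24354 bp apart. Wnt10a and Wnt3a, like their neighbours Wnt6 and Wnt9a, had start-site H3K27me3 in Myc-ESCs only, with 299 and 1154 bp. Wnt3, like Wnt9b, had it in both cultures, with 340 bp (LIF-ESCs) and 320 bp (Myc-ESCs). The neighbours of each pair thus had the same call, and at the start site of Wnt3 the bases were nearly equal in the cultures, where Wnt9b had 238 and 1630 bp. In the rest of the body of Wnt3, H3K27me3 covered 626 bp in LIF-ESCs against 2491 bp in Myc-ESCs, more in Myc-ESCs as at Wnt9b. Between Wnt9a and Wnt3a no LIF-ESC H3K27me3 peak was called and 5 Myc-ESC peaks covered 1100 bp, and between Wnt9b and Wnt3 the bases were 340 and 686 bp. The peaks between Wnt9b and Wnt3 are those already counted in the start-site windows of these genes. So are most of the peaks between Wnt9a and Wnt3a.

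The other Wnt ligand genes and the other genes of the pathway were counted in the same way. Of 9 other ligand genes (Wnt1, Wnt2, Wnt2b, Wnt3, Wnt3a, Wnt8a, Wnt8b, Wnt10a and Wnt10b), H3K4me3 was found at 6 in LIF-ESCs and 8 in Myc-ESCs, Suz12 at 7 in both, and H3K27me3 at 4 and 7. Of 19 genes for Wnt secretion, receptors, planar polarity and effectors, H3K4me3 was found at 18 and 19, Suz12 at 6 and 8, and H3K27me3 at none in LIF-ESCs and 3 in Myc-ESCs. The shares over all genes were 62.2% and 63.3% for H3K4me3, 12.1% and 14.6% for Suz12, and 3.82% and 10.7% for H3K27me3, and the 3 of 19 lie near the last of these. These 3 were Wls, which carries Wnt proteins to the cell surface, with 672 bp of H3K27me3, and Celsr2 and Prickle1 of the planar polarity pathway, with 197 and 3657 bp.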

How the data were processed

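ChIP-sequencing was done for H3K4me3, Suz12 and H3K27me3 in both cultures. Per the study's methods, the authors mapped the reads (HiSeq2000) to GRCm38 using Bowtie2 2.2.3, kept unique best matches, and called peaks over background with MACS 1.4.2 at default settings. The deposited lists give the position and the score of each peak, a multiple of −log10 of its p-value as MACS writes it. Pooling of the libraries is not given in the sources used here. Scores depend on depth. They were ranked within a list, and counts at a score of at least 100 in both cultures depend on depth too.

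Peaks were set against 31603 start sites of 45756 curated RefSeq transcripts (GRCm38) in Python 3.11.15, with interval code that was checked on simulated data, and sequences were read with samtools 1.23.1 and pysam 0.24.0. All 11 promoters from the RefSeq table were identical to the genome. No test was run, since each culture and antibody has 1 list. All 10 genes are named, along with Wnt genes within 100000 bp of them and pathway genes with H3K27me3 in 1 culture only; for the genes of the ESC state, and for Fbxl14 and AU022754, this rule was set aside after the values were seen. The genes, lists and settings were chosen with earlier results of these data known. Alternatives were windows of 1000 and 5000 bp, a score of at least 100, lists of equal length, at least 100 bp covered, the first start site alone, and GENCODE start sites.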

Additional observations from a re-analysis of the deposited data

How the results depend on the processing

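The 12 counts of Wnt genes (3 marks, each in LIF-ESCs, in Myc-ESCs, and in 1 culture only) were recomputed under 7 alternatives. Of these 84 counts, 80 stayed within 1.5 times, but 42 belong to results that were all 10 or none of the genes under every setting and so say little about stability. At a score of at least 100 the number of genes with H3K27me3 in LIF-ESCs went from 3 to 0 (all genes from 3.82% to 0.458%), and with lists of equal length the number with H3K27me3 in Myc-ESCs only went from 6 to 3 (from 7.65% to 1.75%). By construction both settings drop low-scoring peaks. Suz12 in Myc-ESCs only went from 1 gene to 2 with windows of 1000 bp (Wnt4 joined Wnt5b) and to 0 with windows of 5000 bp, against 3.82%, 3.7% and 4.0% of all genes.

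The bases under peaks over the windows and bodies of all 10 genes together were 814 (LIF-ESCs) and 9434 (Myc-ESCs) for H3K27me3, 29484 and 40603 for Suz12, and 51242 and 70118 for H3K4me3, of which 6222 and 6039 are the peak that holds the Fbxl14 start site. At a score of at least 100 they were 0 and 4127, 25413 and 36961, and 46478 and 66145. With lists of equal length they were 3842 for H3K27me3 and 40068 for Suz12 in Myc-ESCs and 49560 for H3K4me3 in LIF-ESCs. Under each of these settings the total was higher in Myc-ESCs for all 3 marks. The whole H3K27me3 lists covered 0.69 Mb in LIF-ESCs against 3.81 Mb in Myc-ESCs, and the whole Suz12 lists 6.22 against 9.38 Mb. For H3K4me3 the whole lists covered 92.9 Mb in LIF-ESCs and 90.8 Mb in Myc-ESCs. By gene, H3K4me3 bases differed most at Wnt5a, with 2754 and 11468, and at Wnt7b, with 3469 and 8773. Wnt5b, Wnt6 and Wnt7a had fewer in Myc-ESCs.

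No paired analysis was possible because there is 1 list for each culture and antibody, and leaving out a library could not be done for the same reason. Depth is unknown, so a peak that is missing from a list is not shown to be absent from the cells.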
